A study of Homo sapiens with 6 samples.

Results

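The glutathione S-transferase family was followed in HEK293 cells through 10 genes: GSTP1, GSTM1, GSTM2, GSTM3, GSTM4, GSTA1, GSTA4, GSTT2B, GSTO1 and GSTK1. The 10 were taken by name, with earlier results of these data known, and are only a part of the family, whose other genes are given further on. All 10 were found among the 57123 genes counted. RNA was sequenced from 3 libraries of wild type (WT) HEK293 cells, an established human embryonic kidney line, and 3 libraries labelled MUL1(-/-). MUL1 is an E3 ubiquitin ligase of the mitochondrial outer membrane, and the MUL1(-/-) derivative of HEK293 was made with CRISPR-Cas9. Both genotypes were untreated and grown in the same medium with fetal calf serum and glutamine. The comparison asks how gene expression differs between cells with and without MUL1. The labels number the libraries 1 to 3 in each genotype but do not state whether they came from separate cultures or from which clone, so p-values measure only the spread between these libraries.

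Glutathione S-transferases join the tripeptide glutathione to electrophilic compounds, which makes these compounds more soluble and marks them for export from the cell. The soluble enzymes fall into classes named by Greek letters, with pi (GSTP1), mu (the GSTM genes), alpha (the GSTA genes), theta (GSTT2B), omega (GSTO1) and kappa (GSTK1, in mitochondria and peroxisomes) represented here. GSTP1 is the pi class enzyme of many tissues outside the liver, it also binds the stress kinase JNK, and its promoter CpG island is widely known as a site of DNA methylation in prostate cancer.

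The promoters of 4 members are shown because these genes went different ways between the genotypes: GSTP1 and GSTM2 were lower in the libraries labelled MUL1(-/-), GSTA1 was higher and GSTM3 kept a high level in both. Each is the 250 bases before the RefSeq start of the gene on GRCh38.p14, read on the strand of the gene. The windows are chr11:67583562-67583811 on the plus strand for GSTP1, chr1:109667807-109668056 on the plus strand for GSTM2, chr6:52803817-52804066 on the minus strand for GSTA1 and chr1:109741039-109741288 on the minus strand for GSTM3. Capitals mark matches to the AP-1 motif TGACTCA, the antioxidant response core TGACNNNGC (both searched on both strands) and TATAA (sense strand only); the GC box GGGCGG, also searched on both strands, is left in lower case.
GSTP1: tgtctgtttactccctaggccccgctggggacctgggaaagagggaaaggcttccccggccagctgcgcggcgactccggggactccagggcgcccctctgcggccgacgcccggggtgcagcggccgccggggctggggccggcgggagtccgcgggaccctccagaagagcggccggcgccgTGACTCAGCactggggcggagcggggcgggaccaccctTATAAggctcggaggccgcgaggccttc
GSTM2: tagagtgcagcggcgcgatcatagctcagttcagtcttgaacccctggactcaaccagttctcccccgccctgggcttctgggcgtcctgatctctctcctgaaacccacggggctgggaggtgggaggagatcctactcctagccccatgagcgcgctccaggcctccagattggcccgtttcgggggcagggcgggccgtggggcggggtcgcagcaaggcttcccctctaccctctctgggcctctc
GSTA1: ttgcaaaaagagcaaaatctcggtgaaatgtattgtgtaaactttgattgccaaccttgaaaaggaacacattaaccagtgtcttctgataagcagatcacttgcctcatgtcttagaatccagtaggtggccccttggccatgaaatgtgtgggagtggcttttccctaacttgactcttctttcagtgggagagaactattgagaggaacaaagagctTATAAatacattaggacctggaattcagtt
GSTM3: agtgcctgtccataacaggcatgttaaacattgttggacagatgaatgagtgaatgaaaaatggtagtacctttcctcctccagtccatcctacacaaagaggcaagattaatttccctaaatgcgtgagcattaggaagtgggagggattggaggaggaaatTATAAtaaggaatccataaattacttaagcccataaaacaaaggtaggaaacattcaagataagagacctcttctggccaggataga
The GSTP1 window held 28 CpG, a number reached by 15.9% of the 35116 RefSeq promoters of the same length, where the median was 11. It held TGACTCA and TGACNNNGC overlapping each other 66 bases before the start, GGGCGG at 53 and 43 bases, and TATAA at 28 bases. The GSTM2 window held 14 CpG and GGGCGG in 3 places. GSTA1 and GSTM3 each had 1 CpG, with TATAA at 30 and 87 bases before the start. The GSTM3 exon bin beside its window (109740953 to 109741038) held 8, 2 and 3 counts in WT and 8, 7 and 2 in MUL1(-/-). Further into the gene, the bin from 109740240 to 109740301 held 291, 359 and 332 in WT and 351, 317 and 329 in MUL1(-/-). Few GSTM3 reads thus came from the start used here, and the window need not be the promoter of most of its RNA. Among the 9 members matched to a RefSeq promoter, TGACTCA was found in GSTP1 alone, and 4.20% of all promoters hold it. TGACNNNGC was also found in GSTM1, GSTA4 and GSTO1, against 10.9% of all promoters. The shares for GGGCGG and TATAA were 42.6% and 13.6%. These matches describe letters in the reference and do not show binding.

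The deposited files hold raw read counts per exon bin, the smallest piece of a gene that no exon edge divides, and a gene's count here was the sum over its bins. These sums totalled 127015142 to 142803296 in the WT libraries and 121917971 to 122441959 in the libraries labelled MUL1(-/-). Levels are given as CPM, counts scaled to the library size after TMM normalization, on which 1 count was 0.00707 to 0.00807 CPM. Changes are log2 fold changes of MUL1(-/-) over WT from edgeR's quasi-likelihood test with Benjamini-Hochberg adjustment over 25125 tested genes. A gene was called where the adjusted p was under 0.05 and the absolute log2 fold change above 1. MUL1 itself had 16.5 ± 2.15 CPM in WT against 18.2 ± 1.35 CPM in MUL1(-/-) (SD, n = 3 each; adjusted p = 0.321, edgeR), so its count does not check the labels. All 8 HEK293 markers examined reached 1 CPM, with a summed level of 1313 to 1527 CPM in WT and 936 to 1116 CPM in MUL1(-/-). Of these, PAX2 was called lower, from 9.46 ± 1.48 to 2.72 ± 0.725 CPM (SD, n = 3 each), and NEFM higher. None of the 9 leukocyte, endothelial and hepatocyte markers reached a mean of 1 CPM. The 3 leukocyte markers summed to 0.198 to 0.252 CPM in WT and 0.427 to 0.599 CPM in MUL1(-/-), and the 3 endothelial markers to 0.0953 to 0.248 and 0.460 to 0.712 CPM. PTPRC of the first list and PECAM1 and VWF of the other were called higher. These 3 passed the filter on low counts only through their MUL1(-/-) counts, so their calls are not read as support. All 4 fibroblast markers and 2 of 3 proximal tubule markers reached 1 CPM, and the fibroblast sum was 23.7 to 31.2 CPM in WT and 27.9 to 36.8 CPM in MUL1(-/-). That sum was mostly COL1A1, at 21.9 ± 2.53 and 16.8 ± 1.91 CPM, while LUM was called higher, from 1.11 ± 0.0766 to 9.45 ± 2.59 CPM (edgeR adjusted p = 6.8e-09), as was DCN, from 1.19 ± 0.0408 to 2.92 ± 0.440 CPM (edgeR adjusted p = 7.14e-06; SD, n = 3 each). No marker was at 0 in all libraries, and the part of these differences in the results below was not tested. In such bulk libraries, fewer cells with a transcript and less transcript per cell cannot be told apart.

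Of the 10 members, 8 had enough counts to be tested. GSTP1, GSTT2B and GSTM2 were called lower in the libraries labelled MUL1(-/-), where 3.87% of all tested genes were called lower. GSTA1 was called higher, where 4.23% of all tested genes were, but it entered the test only through its MUL1(-/-) counts, so it had to differ and is left out of the counts that follow. GSTO1, GSTM3, GSTA4 and GSTK1 were not called, and GSTM1 and GSTM4 held too few counts. By the adjusted p alone 5 of the other 7 passed, all 5 lower, where 37.5% of all tested genes passed. The values of the genotypes did not overlap in 6 of the 7, beside 48.5% of all tested genes. The median log2 fold change of the 7 was -0.27, beside -0.01 for all tested genes.

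**Figure D1:**
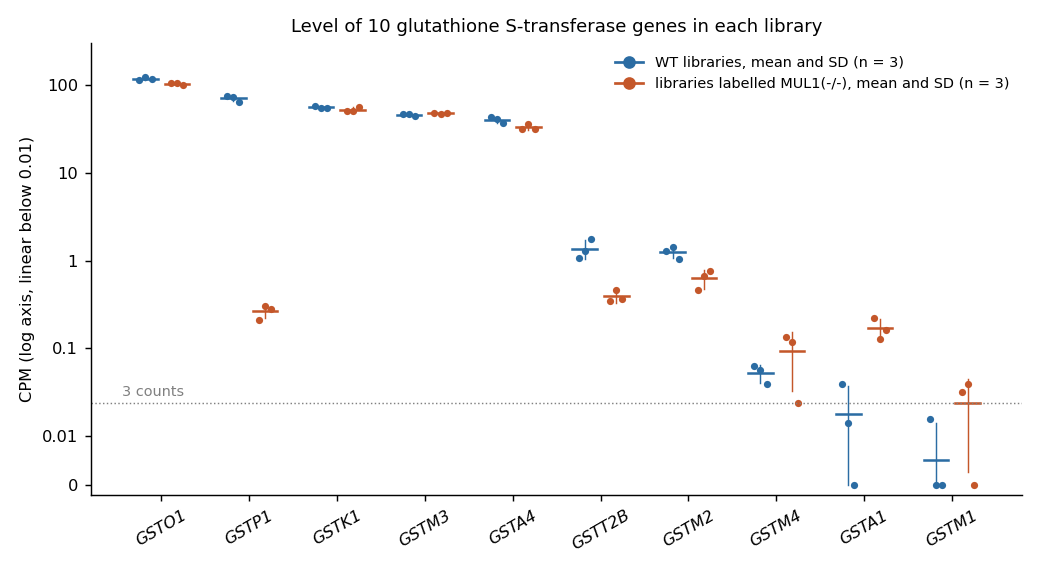
Level of each of the 10 genes in CPM (vertical axis, logarithmic above 0.01) in the 3 WT libraries and the 3 libraries labelled MUL1(-/-). Points are libraries, horizontal bars means, and vertical bars the SD, cut at 0. The dotted line is the level of 3 counts. GSTP1 lies near 70.1 CPM in WT and near 0.267 CPM in MUL1(-/-), while GSTO1, GSTK1, GSTM3 and GSTA4 stay above 30 CPM in every library.

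GSTP1 (ENSG00000084207), on the plus strand of chromosome 11 from 67583595 to 67586656 in GENCODE 29 on GRCh38, was the member that differed most. Its summed counts were 9386, 10272 and 8021 in WT replicates 1 to 3 and 27, 38 and 35 in MUL1(-/-) replicates 1 to 3. The lowest WT library thus held over 100 times the counts of any library labelled MUL1(-/-), and the genotypes were far from overlapping. The mean level fell from 70.1 ± 5.57 CPM to 0.267 ± 0.0472 CPM (SD, n = 3 each), a 263-fold ratio of means. Its log2 fold change came to -8.03 (SE 0.13; edgeR adjusted p = 7.86e-15). Ranked by log2 fold change, GSTP1 was the gene at place 8 from the lowest of all 25125 tested, and at place 3 among the 10193 genes with at least 10 CPM in WT. It was 1 of 11 genes that went from at least 10 CPM in WT to under 1 CPM in MUL1(-/-). The level in MUL1(-/-) stayed above the floor of 3 counts, which is 0.0212 to 0.0242 CPM and covers counting error only.

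The difference ran along the whole of GSTP1. The gene has 22 exon bins, and 10 of them held at least 100 counts in every WT library, together 97.2% of its WT counts. In these 10 bins the WT libraries held 108 to 1628 counts and the libraries labelled MUL1(-/-) 0 to 8. The most counted bin, in which each read counts once, held 1435, 1628 and 1261 counts in WT and, with the bin chosen in each library, 6, 7 and 8 in MUL1(-/-). The remaining reads in MUL1(-/-) were spread over 13 bins, and 9 bins were at 0. Exon bins of longer annotated transcripts reach into the promoter window shown above. The first of them, of 147 bases, held 23, 32 and 20 counts in WT and 0 in each library labelled MUL1(-/-). GSTP1 shares no exact stretch of 50 bases with the transcripts of another gene, and no exon of another gene touches its bins.

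The reported genes around GSTP1 did not share its change. Of 9 tested genes beside it, 4 before and 5 after, 0 were called by edgeR, DESeq2 or limma-voom. In edgeR 2 had an unadjusted p under 0.05 and 0 an adjusted one, and the log2 fold changes ran from -0.55 to 0.42 with a median of -0.02. The gene that follows it, NDUFV1, a subunit of respiratory complex I that starts 22058 bases after the GSTP1 start, had 331.4 ± 25.8 CPM in WT against 326.0 ± 12.6 CPM in MUL1(-/-) (SD, n = 3 each). Its log2 fold change came to -0.02 (SE 0.07; edgeR adjusted p = 0.824). The other 8 were TMEM134, MIR6752, PITPNM1, CDK2AP2, DOC2GP, NUDT8, RPL37P2 and ALG1L8P.

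**Figure D2:**
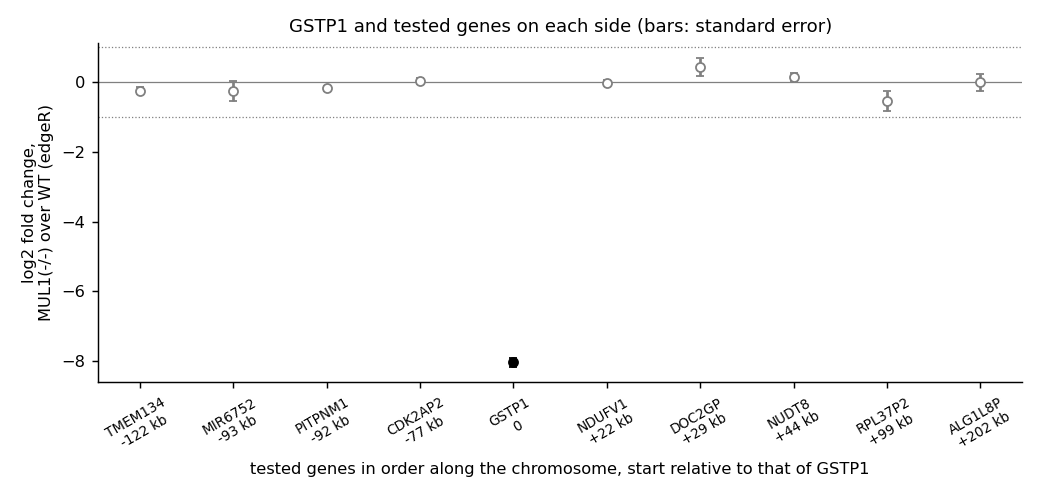
Log2 fold change of MUL1(-/-) over WT with its standard error (vertical axis) for GSTP1 and 9 tested genes beside it, in chromosome order (horizontal axis) with the distance of each start from that of GSTP1 in kb. Filled points passed both thresholds, and dotted lines mark a log2 fold change of 1 in each direction. GSTP1 lies at -8.03 and the 9 others between -0.55 and 0.42.

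The 5 tested genes whose log2 CPM over the 6 libraries lay closest to GSTP1, by Euclidean distance, were PYCR1, ANOS1, COL2A1, BMP2 and PPP1R14A. PYCR1, which makes proline in mitochondria, was nearest, at a distance of 2.05, with 105.4 ± 14.6 CPM in WT against 0.526 ± 0.112 CPM in MUL1(-/-) (SD, n = 3 each). ANOS1, which encodes the matrix protein anosmin, followed at 2.90, with 32.4 ± 2.99 and 0.120 ± 0.0588 CPM. COL2A1, a fibrillar collagen chain, BMP2, a secreted growth factor, and PPP1R14A, an inhibitor of myosin phosphatase, lay at 3.09, 3.17 and 3.40. These genes are named for a level and a difference like those of GSTP1, and no test was made of the likeness. They lie on chromosomes 17, X, 12, 20 and 19, and none on that of GSTP1.

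In the mu class, GSTM3 was the abundant member. GSTM3 (ENSG00000134202; chromosome 1, minus strand, 109733932 to 109741038) encodes the mu enzyme of brain and testis. Its levels were 46.4, 46.7 and 44.2 CPM in WT replicates 1 to 3 and 48.1, 46.8 and 48.2 CPM in MUL1(-/-). The values were close in all 6 libraries, although the highest WT value lay just under the lowest of MUL1(-/-). The log2 fold change came to 0.06 (SE 0.07; edgeR adjusted p = 0.530), so no difference was detected.

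GSTM2 (ENSG00000213366; chromosome 1, plus strand, 109668022 to 109709551), a mu enzyme known from muscle and brain, was read at a low level. Its summed counts were 165, 203 and 132 in WT and 58, 83 and 94 in MUL1(-/-). Every WT library lay above every library labelled MUL1(-/-). The level fell from 1.26 ± 0.197 to 0.627 ± 0.153 CPM (SD, n = 3 each), or -1.01 on the log2 scale (SE 0.20; edgeR adjusted p = 0.00115). This lies at the fold threshold, and GSTM2 was called in 9 of 18 alternative settings. Without WT replicate 1, WT replicate 2 or MUL1(-/-) replicate 1 the log2 fold change was -0.99, -0.91 or -0.81, and the call was lost. Of its 36 bins, 22 shared no 50-base stretch with another gene and held 43.0% of its counts. In these bins the counts were 74, 88 and 55 in WT and 21, 34 and 44 in MUL1(-/-), again without overlap, and the log2 fold change came to -1.05 (SE 0.28; edgeR adjusted p = 0.00754). Many of these bins are short and adjacent, and a read counts in every bin it touches, so fewer reads stand behind these sums. The most counted bin, chosen in each library, held 16, 26 and 13 counts in WT and 9, 7 and 11 in MUL1(-/-). On that measure the log2 fold change of GSTM2 was -0.93 (SE 0.36; edgeR adjusted p = 0.0514).

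GSTM1, GSTM2 and GSTM4 overlap on the same strand, and the files join them under 1 identifier, which was divided here by the exons each bin touches. Bins in exons of GSTM1 alone, which encodes a mu enzyme of the liver, held 2, 0 and 0 counts in WT and 4, 5 and 0 in MUL1(-/-). Bins in exons of GSTM4 alone, another mu enzyme, held 8, 8 and 5 counts in WT and 17, 15 and 3 in MUL1(-/-). Both genes overlapped between the genotypes and were not tested. GSTM1 lay at or near the floor of 3 counts, while GSTM4 held from 3 to 17. A further 7 bins lie in exons of both GSTM2 and GSTM4 and were given to neither. They held 134, 132 and 118 counts in WT and 37, 39 and 44 in MUL1(-/-), or 0.975 ± 0.0691 and 0.320 ± 0.0321 CPM (SD, n = 3 each). The shared bins were thus lower in every library labelled MUL1(-/-), as GSTM2 was, while the bins of GSTM4 alone overlapped. Of the 50-base stretches of GSTM1, 51.5% also occur in other genes, mainly GSTM2 and GSTM4, and for GSTM2 and GSTM4 the shares were 16.1% and 17.0%.

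Around the mu genes, AMPD2 and an antisense gene (ENSG00000228703) before the cluster had log2 fold changes of 0.03 and 0.01. AHCYL1 after it had 0.03, and none of these 3 was called. The antisense gene lies within AMPD2, and reads were counted without regard to strand, so it need not be a separate reading. CSF1, the macrophage growth factor that starts 254161 bases after the start of the cluster, was higher, with 5.12 ± 0.105 CPM in WT against 10.5 ± 0.868 CPM in MUL1(-/-) (SD, n = 3 each). Its log2 fold change came to 1.04 (SE 0.10; edgeR adjusted p = 1.85e-06), close to the fold threshold.

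The alpha class had 1 abundant and 1 scarce member. GSTA4 (ENSG00000170899; chromosome 6, minus strand, 52977948 to 52995378) acts on 4-hydroxynonenal, a product of lipid peroxidation. It had 42.3, 40.2 and 36.7 CPM in WT and 31.7, 36.0 and 31.0 CPM in MUL1(-/-). All WT values lay above all values of MUL1(-/-), with the nearest pair less than 1 CPM apart. The log2 fold change came to -0.27 (SE 0.08; edgeR adjusted p = 0.0183), under the fold threshold. The edgeR adjusted p was 0.0986 without WT replicate 1, 0.0622 without WT replicate 2 and 0.0803 without MUL1(-/-) replicate 1.

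GSTA1 (ENSG00000243955; chromosome 6, minus strand, 52791664 to 52803910), the main alpha enzyme of the liver, was close to absent in WT. Its counts were 5, 2 and 0 in WT and 28, 16 and 20 in MUL1(-/-). The groups did not overlap, and WT replicates 2 and 3 were under the floor of 3 counts. Mean levels were 0.0178 ± 0.0199 CPM in WT against 0.170 ± 0.0474 CPM in MUL1(-/-) (SD, n = 3 each). The log2 fold change came to 3.19 (SE 0.60; edgeR adjusted p = 0.000633). Because the filter on low counts let GSTA1 in only through MUL1(-/-), this p is not read as support. With no filter on low counts the log2 fold change was 3.22 (edgeR adjusted p = 3.57e-07). In that setting the adjusted p was also smaller for GSTP1, GSTM2 and GSTT2B, and larger for GSTM3, GSTA4, GSTO1 and GSTK1. The smaller p of GSTA1 there is thus not read as stronger support. Without WT replicate 1, which holds 5 of the 7 WT counts, the log2 fold change of GSTA1 was 4.34. The most counted bin of GSTA1 held 2, 1 and 0 counts in WT and 5, 3 and 3 in MUL1(-/-), so few reads stand behind the sums, and GSTA1 did not enter the test on that measure. All 9 of its bins touch stretches of 50 bases that also occur in other genes, mainly GSTA2 and GSTA5. Of all its 50-base stretches 26.2% were shared in this way, and of its 100-base stretches 9.85%. GSTA2 held 5, 0 and 1 counts in WT and 0, 5 and 3 in MUL1(-/-), GSTA3 0, 0 and 9 against 9, 8 and 4, and GSTA5 was at 0 in every library.

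The 2 tested genes on each side of the alpha cluster were all slightly higher in MUL1(-/-). TMEM14A and a pseudogene (ENSG00000216775) before it had log2 fold changes of 0.27 and 0.31. CILK1 and FBXO9 after it had 0.28 and 0.35. Each had an adjusted p under 0.05 in edgeR, from 0.000961 to 0.0389, where 37.5% of all tested genes had. Of the 4, 0 were called by edgeR, DESeq2 or limma-voom.

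GSTT2B (ENSG00000133433; chromosome 22, minus strand, 23957414 to 23961186) encodes a theta class enzyme and lies beside its near-identical copy GSTT2. Its counts were 137, 182 and 219 in WT and 44, 58 and 45 in MUL1(-/-). Every WT library held more than any library labelled MUL1(-/-). The level fell from 1.37 ± 0.337 to 0.392 ± 0.0628 CPM (SD, n = 3 each), or -1.80 on the log2 scale (SE 0.22; edgeR adjusted p = 1.23e-05). All 8 of its bins were lower in MUL1(-/-), and the most counted bin held 35, 46 and 58 counts in WT and 12, 14 and 12 in MUL1(-/-). However, 90.9% of its 50-base stretches occur in GSTT2, and no bin is free of them, so reads of the pair cannot be told apart by these counts. The bins of GSTT2 held 4, 3 and 4 counts in WT and 0 in each library labelled MUL1(-/-). Of the neighbours, the cytokine gene MIF had a log2 fold change of -0.06, MIF-AS1 -0.04, DDTL -0.19 and a lincRNA gene (ENSG00000272787) -0.44, and none of these 4 had an adjusted p under 0.05 in edgeR. MIF-AS1 overlaps MIF on the other strand with similar counts. Reads were counted without regard to strand, so MIF and MIF-AS1 need not be separate readings.

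GSTO1 (ENSG00000148834; chromosome 10, plus strand, 104235356 to 104267459), the omega enzyme that reduces dehydroascorbate and methylated arsenicals, had the highest level of the family. It had 114.2, 120.7 and 114.9 CPM in WT and 103.2, 104.8 and 99.3 CPM in MUL1(-/-). The groups did not overlap, but the difference was small, with a log2 fold change of -0.19 (SE 0.06; edgeR adjusted p = 0.0332). The adjusted p was under 0.05 in 8 of 18 alternatives and 0.168 with library totals in place of TMM. It stayed under 0.05 in only 1 of the 6 settings with 1 replicate left out, that without WT replicate 3. The neighbouring omega gene GSTO2 had 2.93 ± 0.228 and 3.88 ± 0.211 CPM, or 0.40 on the log2 scale (SE 0.12; edgeR adjusted p = 0.0146). SFR1, CFAP43 and ITPRIP, also tested beside GSTO1, had -0.79, -0.45 and -0.04.

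GSTK1 (ENSG00000197448; chromosome 7, plus strand, 143244093 to 143270854) encodes the kappa enzyme, which resembles bacterial disulphide isomerases more than the other classes. It had 57.5, 54.5 and 54.3 CPM in WT and 49.9, 50.05 and 56.2 CPM in MUL1(-/-). The groups overlapped, and the log2 fold change came to -0.09 (SE 0.07; edgeR adjusted p = 0.363). Of the 4 tested genes around it 3 were called, where 4.23% of all tested genes were called higher and 3.87% lower. The calcium channel gene TRPV6 was higher, from 0.0247 ± 0.0173 to 0.428 ± 0.259 CPM. TRPV6 entered the test only through its MUL1(-/-) counts, so its call is not read as support. KEL and TMEM139 were lower, with log2 fold changes of -1.56 and -1.09. The initiator caspase gene CASP2 had -0.08 and was not called.

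**Figure D3:**
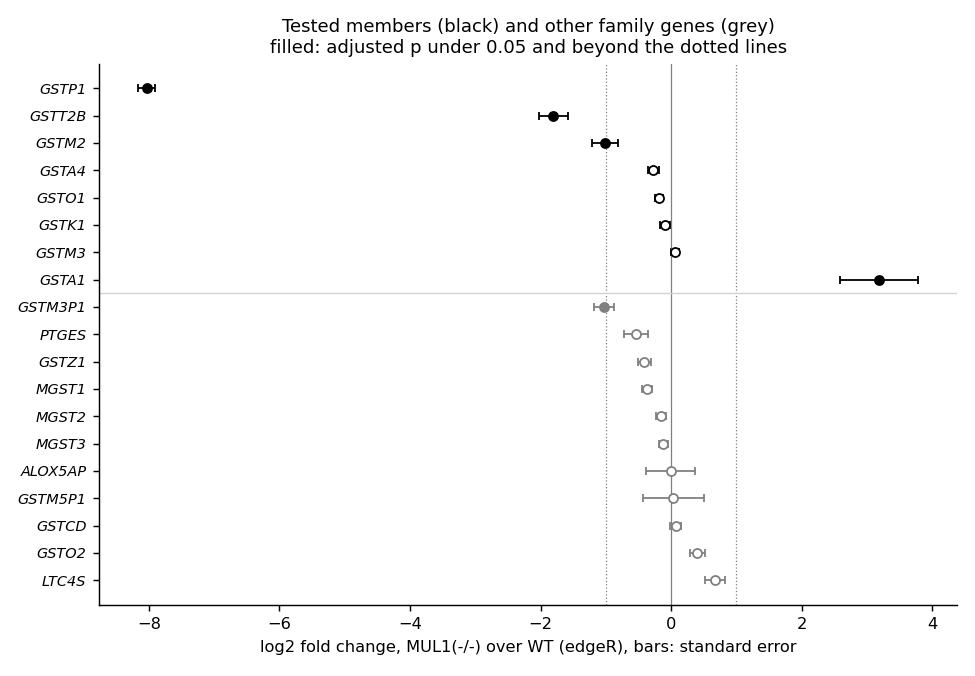
Log2 fold change of MUL1(-/-) over WT with its standard error (horizontal axis) for the 8 tested members, in black, and the other tested genes of the family with its pseudogenes, in grey. Filled points had an adjusted p under 0.05 in edgeR and lie beyond the dotted lines at 1 in each direction. GSTP1 at -8.03, GSTT2B at -1.80, GSTM2 at -1.01 and GSTA1 at 3.19 are the filled members.

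Levels were compared between members on a scale per length, the most counted bin of 80 to 150 bases in each gene, per 100 bases. It was scaled to each library's total over the most counted bins of all genes, without TMM factors, and is not CPM. In WT the order was GSTO1 at 91.5 ± 5.35, GSTP1 at 50.1 ± 3.76, GSTM3 at 32.1 ± 1.65, GSTK1 at 20.4 ± 0.323 and GSTA4 at 18.3 ± 1.45 (SD, n = 3 each). GSTT2B at 1.33 ± 0.371 and GSTM2 at 0.758 ± 0.172 followed, and GSTA1, GSTM4 and GSTM1 lay at or under 0.0318. In this order neighbours did not overlap down to GSTM2, while the last 3 did. In MUL1(-/-) GSTO1 led at 86.3 ± 2.75, before GSTM3 at 34.7 ± 2.52, GSTK1 at 20.2 ± 1.04 and GSTA4 at 16.0 ± 1.12. GSTM2 at 0.440 ± 0.129 and GSTT2B at 0.400 ± 0.0342 overlapped each other. GSTP1 came after both, at 0.219 ± 0.0585, and GSTA1 lay at 0.119 ± 0.0214. As a share of the summed per-length level of the 10 members, GSTP1 made up 23.3% ± 0.768 in WT and 0.138% ± 0.0368 in MUL1(-/-) (SD, n = 3 each). The share of GSTO1 was 42.7% ± 0.727 in WT and 54.5% ± 1.43 in MUL1(-/-), and that of GSTM3 15.0% ± 0.0771 and 21.9% ± 1.53. Their log2 fold changes of -0.19 and 0.06, given above, are from edgeR on the summed counts and not on this scale.

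The other listed genes of the family did not pass both thresholds. Of 17 further glutathione S-transferase and MAPEG genes listed, the latter being the membrane-bound relatives, 16 were found and 9 were tested, of which 0 were called by edgeR, DESeq2 or limma-voom. In edgeR 5 had an adjusted p under 0.05, the same number as by the unadjusted p, where 37.5% of all tested genes had such an adjusted p. Lower were GSTZ1, the zeta enzyme of tyrosine breakdown, at 31.7 ± 3.92 and 23.9 ± 1.74 CPM (log2 fold change -0.41, adjusted p = 0.00332, edgeR), the microsomal enzyme MGST1 at 60.8 ± 3.14 and 47.1 ± 3.56 CPM (-0.37), and the prostaglandin E synthase PTGES at 1.14 ± 0.0844 and 0.782 ± 0.187 CPM (-0.54). Higher were GSTO2, given above, and LTC4S, the leukotriene C4 synthase, at 1.95 ± 0.116 and 3.12 ± 0.607 CPM (0.68). MGST2, MGST3, GSTCD and ALOX5AP had log2 fold changes of -0.15, -0.12, 0.07 and -0.01. GSTM5, GSTT4 and HPGDS held 0 to 18 counts and were not tested. GSTT1 is not analysed here. Among the pseudogenes, GSTM3P1 was called lower, from 4.57 ± 0.796 to 2.24 ± 0.335 CPM, but all of its 50-base stretches occur in another gene (ENSG00000278041), and GSTM5P1 had 0.03.

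Genes that supply glutathione, which the transferases use, were next examined. Of 18 tested genes of glutathione synthesis and turnover, 0 were called by edgeR or limma-voom, and the median log2 fold change was 0.06. Counts by the adjusted p, here and in the lists that follow, stand beside 37.5% of all tested genes. In edgeR 11 had an unadjusted p under 0.05, and 4 higher and 4 lower an adjusted one. DESeq2, which tested more genes, called GGT6, with 1, 2 and 0 counts in WT and 7, 12 and 10 in MUL1(-/-). Examples picked after their values were seen were GCLC, the catalytic subunit of the rate-limiting ligase, at 59.4 ± 0.727 and 99.4 ± 8.18 CPM (SD, n = 3 each; log2 fold change 0.74, SE 0.07, adjusted p = 2.01e-06, edgeR), and GSS, the next enzyme, at 55.0 ± 5.78 and 41.3 ± 0.820 CPM (-0.41, adjusted p = 0.000914, edgeR). GCLM, the modifier subunit, had 0.18 (adjusted p = 0.106, edgeR) and SLC7A11, the cystine carrier, -0.39 (adjusted p = 0.0610, edgeR).

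Among 10 tested genes of conjugate export and mercapturate formation, 1 was called higher and 0 lower, where 4.23% and 3.87% of all tested genes were. An adjusted p under 0.05 was reached by 8 of the 10, 6 higher and 2 lower, beside 37.5% of all tested genes, and the median was 0.22. The called gene was the conjugate transporter ABCC3, with 10, 12 and 8 counts in WT and 19, 28 and 21 in MUL1(-/-), or 0.0757 ± 0.0110 and 0.181 ± 0.0381 CPM (log2 fold change 1.24, SE 0.36, adjusted p = 0.0133, edgeR). Limma-voom also called it and DESeq2 did not (adjusted p = 0.0603). In edgeR and limma-voom ABCC3 entered the test only through its MUL1(-/-) counts, as GSTA1 did, so those calls are not read as support. ABCC3 is also among the 6 counted as higher by the adjusted p. The list also had 0 called genes without MUL1(-/-) replicate 2, with glmTreat's test against a log2 fold change of 1, with the most counted bin of each gene and with at least 1 CPM in at least 3 samples. ABCC5, an export pump picked after its values were seen, had 46.7 ± 1.62 and 90.04 ± 3.50 CPM and lay just under the fold threshold at 0.95 (SE 0.07, adjusted p = 8.90e-08, edgeR).

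Of 17 tested redox and other enzymes that use glutathione, 2 were called lower by edgeR, DESeq2 and limma-voom and 0 higher. Of all tested genes, edgeR called 3.87% lower and 4.23% higher. In edgeR 7 had an unadjusted p under 0.05 and 5 an adjusted one, 3 higher and 2 lower, beside 37.5% of all tested genes. The median was 0.05. The called genes were the lipid peroxide reductase GPX4, at 1261 ± 111.4 and 274.3 ± 8.13 CPM (log2 fold change -2.20, SE 0.07, adjusted p = 1.53e-11, edgeR), and the secreted peroxidase GPX3, at 43.3 ± 3.50 and 17.9 ± 2.58 CPM (-1.28, SE 0.10, adjusted p = 2.42e-07, edgeR).

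Of 17 tested regulators of transferase genes and partners of GSTP1, 0 were called by edgeR, DESeq2 or limma-voom. In edgeR 8 had an unadjusted and 7 an adjusted p under 0.05, and the median was -0.09. NFE2L2, which encodes the factor that binds antioxidant response elements, had 41.7 ± 1.79 and 45.0 ± 2.61 CPM (log2 fold change 0.11, adjusted p = 0.276, edgeR). KEAP1, its inhibitor, had 43.3 ± 4.58 and 76.2 ± 11.1 CPM (0.82, adjusted p = 1.72e-05, edgeR). JUN, a subunit of AP-1, and MAPK8, which encodes the kinase JNK, had 0.10 and -0.33. Of 10 tested genes that bind or maintain DNA methylation, 0 were called by edgeR, DESeq2 or limma-voom. In edgeR 7 had an unadjusted and 5 an adjusted p under 0.05, and the median was 0.12. The maintenance methyltransferase DNMT1 had 454.3 ± 19.3 and 603.7 ± 8.37 CPM (0.41), the de novo enzyme DNMT3B 48.9 ± 2.58 and 30.7 ± 0.983 CPM (-0.67), and TET1, which oxidises methylcytosine, 32.1 ± 0.921 and 17.6 ± 3.84 CPM (-0.87). The 7 genes named from these lists were picked after their values were seen, and DNA methylation was not measured in these files.

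**Figure D4:**
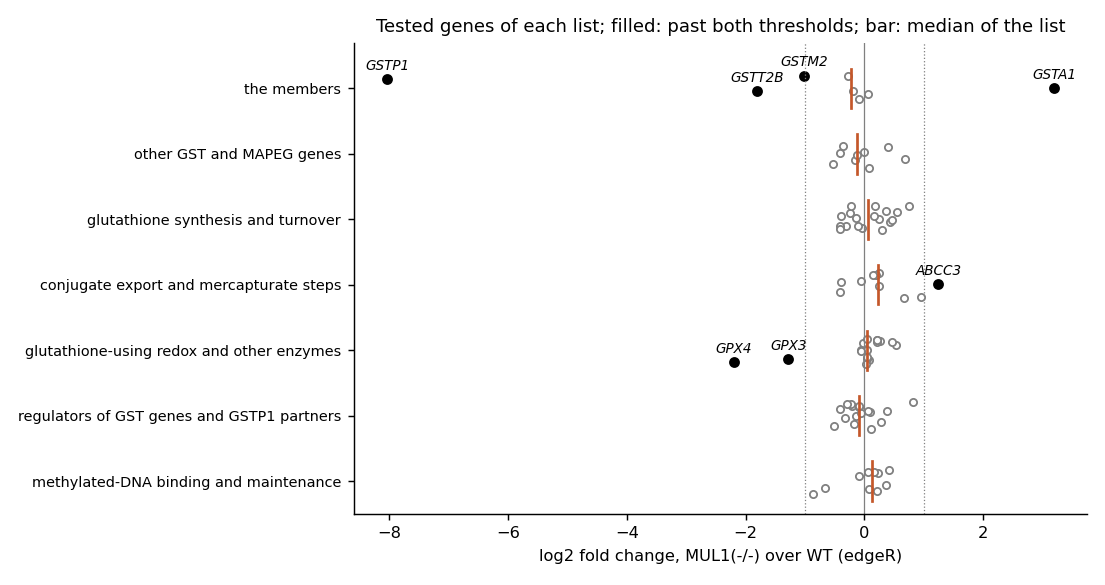
Log2 fold change of MUL1(-/-) over WT (horizontal axis) of each tested gene in the members and the 6 other lists (rows). Filled points passed both thresholds, coloured bars mark the median of a list, and dotted lines a log2 fold change of 1 in each direction. Outside the members, the filled points are ABCC3, GPX3 and GPX4, and all list medians lie between -0.23 and 0.22. The median of -0.23 is that of the members with GSTA1 counted, and without GSTA1 it was -0.27.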

How the data were processed

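RNA-seq was performed on 6 libraries of HEK293 cells, 3 WT and 3 labelled MUL1(-/-), grouped by the genotype in the labels. Each library has 1 file of raw counts per exon bin as deposited by the authors, not normalized and not pooled. The submitters' processing notes name Trimmomatic 0.36, STAR 2.5.2b and GRCh38; the counting program is not given in the sources used here.

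Each of 57123 genes was counted as the sum over its bins. Overlapping genes joined under 1 of 2031 identifiers were split along GENCODE 29 exons of that strand, and bins touched by several of them (4.37% of counts) were left out. A read is counted in every bin it touches and without regard to strand, so sums exceed reads. Bins shared between relatives were found from exact stretches of 50 and 100 bases in GENCODE 29 transcripts. Promoters are RefSeq sequences.

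Counts were tested with edgeR 4.0.16 in R 4.3.3 (TMM, filterByExpr, quasi-likelihood test, Benjamini-Hochberg adjustment), in place of DESeq2, the study's tool, which gave an alternative (1.42.0), as did limma-voom (limma 3.58.1). Tables and figures used Python 3.11.15, numpy 2.4.6, pandas 2.3.3 and matplotlib 3.10.9. The tests were checked on simulated counts for the comparison of MUL1(-/-) with WT. Of 25125 genes, 200 were set to differ by 2 on the log2 scale, drawn only from genes above a minimum mean count. Each of edgeR with and without the replicate block, DESeq2 and voom found 200 of them, with 0, 1, 0 and 2 false calls. Recovery of genes with few counts, or of changes near the fold threshold, was not checked in this way. The 19 alternatives changed the tool, the scaling, the filter, the thresholds, the replicate block, the replicates included or the bins counted. Chi-square values per degree of freedom between replicates were 2.85 to 10.7, above sampling noise, and no library was merged with another.

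Named genes were all members, other family genes with counts, called list genes, the 5 tested genes on each side of GSTP1 and 2 on each side of other members, the 5 genes most like GSTP1, and MUL1. Not every gene that this rule or the marker lists cover is reported here. The members and lists were chosen with earlier results of these data known, and glutathione genes were among those the study selected from these libraries, so counts over them are not independent evidence.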

Additional observations from a re-analysis of the deposited data

How the results depend on the processing

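Over 19 alternatives, the number of members past both thresholds with GSTA1 counted, 4 as reported, was 3 to 6 in all but 3, which gave 2. It was 2 with at least 1 CPM in at least 3 samples, where GSTA1 was not tested and GSTM2 had -0.9994. It was 2 with the most counted bin, where GSTA1 was not tested and GSTM2 had -0.93 (adjusted p = 0.0514, edgeR). It was 2 in bins free of shared stretches, where GSTT2B and GSTA1 had no bin left and could give no value. GSTP1 was called in 18 of 18 alternatives (log2 fold change -8.13 to -7.57), and GSTT2B in 17 of 17 (-1.95 to -1.60). GSTA1 gave values of 2.65 to 4.34 in the 15 that tested it. In all of these but DESeq2 and no filter it entered only through its MUL1(-/-) counts, so those calls say nothing of stability. Without GSTA1 the number of members was 3 as reported, beside 3.87% of all tested genes called lower, and 2 to 5 over the alternatives. GSTM2 also missed the fold threshold with DESeq2 (-0.9987), library totals (-0.94) and no filter (-0.98), and in glmTreat's test. With 1 replicate left out the number was 3 to 4 with GSTA1 and 2 to 3 without it. No result reversed. The 6 other lists gave 3 called genes, among them ABCC3, which entered only through its MUL1(-/-) counts. Alternatives gave 7 with no filter on low counts, 38 by the adjusted p alone and 1 with glmTreat. With 1 replicate left out they gave 3 to 5, and 5 without WT replicate 1, WT replicate 2 or MUL1(-/-) replicate 1. The cause of these moves was not tested beyond the genes that a setting removed. With the replicate number as a block, 4 members, GSTA1 among them, and 3 list genes were called, and no call of a member changed. Deviations of same-numbered libraries correlated at -0.0812, 0.157 and 0.100 over 15858 genes, and not every library correlated best with its own number, so the numbers are not treated as pairing the samples. Depth limits GSTM1, GSTM4 and GSTA1, which hold few summed counts.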
